A study of Mus musculus with 24 samples.

Results

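Spi1, Irf8, Gfi1 and Zeb2 are transcription factors that steer blood progenitors between the neutrophil, monocyte and dendritic cell fates, and their expression was followed across 7 groups of mouse blood-forming cells. The array probe sets annotated with exactly 1 of these 4 symbols were taken, which gave 5 probe sets of the 22626 that are not controls: Spi1 1418747_at, Irf8 1416714_at and 1448452_at, Gfi1 1417679_at and Zeb2 1422748_at. These 4 genes stood among 12393 genes with a symbol of their own, and all 5 probe sets read over 60, the background level of the study, on all 24 arrays. All cells came from C57BL/6 mice. Lineage-negative Sca-1+ Kit+ (LSK) cells, the gate that holds the stem cells, gave 3 arrays and sorted normal granulocyte monocyte progenitors (GMP, called fresh GMP beside transduced cells) gave 4, both untransduced. GMP transduced with a vector for GFP alone gave 3 arrays, GMP with MOZ-TIF2 gave 4, GMP with NUP98-HOXA9 gave 3 and GMP with AML1-ETO gave 4, and their GFP+ cells were taken 36 hours after infection. Leukemic cells with the GMP surface phenotype from a MOZ-TIF2 leukemia model (L-GMP) gave 3 arrays. The oncogenes are human leukemia fusions introduced by a vector, so the transduced groups differ from fresh GMP in infection and culture as well as in any oncogene. The labels do not say whether arrays of a group came from separate mice or leukemias, so the p-values measure the spread between these arrays, which may be technical.

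Spi1 encodes PU.1, an ETS family activator that opens myeloid enhancers and is needed for both granulocytes and monocytes. Irf8 is an interferon regulatory factor that binds DNA largely together with PU.1 and favours monocytes and dendritic cells over neutrophils. Gfi1 is a zinc finger repressor that recruits histone demethylase and deacetylase complexes, favours neutrophils and is known to counteract PU.1 and Irf8. Zeb2 is a zinc finger and homeodomain repressor of E-box genes, known for its part in monocyte and dendritic cell development, and Zeb1 is its close relative.

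The promoters of the members were searched for the short motifs the factors are known to bind. RefSeq promoter windows (GRCm38.p6) were at hand for Irf8, Gfi1 and Zeb2, that is 3 of the 4 genes, and the 250 bases before each annotated start were read. The motifs were the PU.1 core GAGGAA, the Gfi1 core AAATCA, the Zeb E-box CACCTG, the C/EBP element TTGCNNAA, the composite ETS-IRF element, the IRF element and the Runx element TGTGGT, each on both strands. Capitals below mark the matches, with the start site just after the last base, and 4 of the 8 windows of these genes are shown as examples that hold a motif of another member.
Irf8, chr8:120736108-120736357, strand plus: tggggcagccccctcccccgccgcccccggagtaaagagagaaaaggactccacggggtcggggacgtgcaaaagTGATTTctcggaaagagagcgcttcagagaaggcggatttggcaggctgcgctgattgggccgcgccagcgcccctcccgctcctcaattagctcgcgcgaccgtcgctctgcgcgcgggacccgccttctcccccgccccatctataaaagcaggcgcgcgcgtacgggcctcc
Gfi1, chr5:107725806-107726055, strand minus: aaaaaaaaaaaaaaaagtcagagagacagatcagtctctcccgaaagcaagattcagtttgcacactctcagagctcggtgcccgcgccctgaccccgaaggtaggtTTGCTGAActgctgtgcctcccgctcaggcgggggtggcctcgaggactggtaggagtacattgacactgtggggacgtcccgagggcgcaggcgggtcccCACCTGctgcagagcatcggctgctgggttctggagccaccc
Zeb2, chr2:45117443-45117692, strand minus: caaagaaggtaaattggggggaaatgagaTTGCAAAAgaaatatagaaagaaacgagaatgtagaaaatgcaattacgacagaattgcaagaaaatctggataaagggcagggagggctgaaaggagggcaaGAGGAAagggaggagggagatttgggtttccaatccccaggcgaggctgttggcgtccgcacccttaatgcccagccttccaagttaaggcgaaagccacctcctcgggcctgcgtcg
Zeb2, chr2:45110278-45110527, strand minus: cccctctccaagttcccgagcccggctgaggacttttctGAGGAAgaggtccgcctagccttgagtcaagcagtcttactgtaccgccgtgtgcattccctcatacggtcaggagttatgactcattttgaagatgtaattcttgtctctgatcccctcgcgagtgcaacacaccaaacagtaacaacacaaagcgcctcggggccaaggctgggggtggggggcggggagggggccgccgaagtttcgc
The first start of Irf8 had the Gfi1 core, on the opposite strand as TGATTT, 175 to 170 bases before the start. Its start 2, not printed, had the same Gfi1 core at 226 to 221 bases and the Zeb E-box, on the opposite strand as CAGGTG, at 205 to 200 bases. The first start of Gfi1 had the Zeb E-box at 42 to 37 bases and a C/EBP element, TTGCTGAA, at 143 to 136 bases before the start. The first start of Zeb2 had the PU.1 core at 118 to 113 bases and a C/EBP element, TTGCAAAA, at 221 to 214 bases, and its start 4 had the PU.1 core at 211 to 206 bases. All 4 annotated starts of Zeb2 had 1 PU.1 core, although the windows of starts 2 and 3 overlap and share it. Of all 32851 promoter windows of this length, 23.3% held the PU.1 core, 12.4% the Gfi1 core, 17.2% the Zeb E-box and 9.56% the C/EBP element. The composite ETS-IRF element (2.3% of windows), the IRF element (2.98%) and the Runx element (14%) were not in any of the 8 windows of these genes. A match describes the letters and was not tested as a binding site.

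Levels are the deposited log2 expression values, and a difference of 1 on that scale is a doubling. Between 46.1% and 48.3% of probe sets read over 60 per array, and the array medians lay between 5.63 and 5.76. The GMP markers (9 of 9 on the array) were over 60 in every group, and no B cell marker other than 1 of 7 was. Erythroid markers were over 60 for 6 of 8 in LSK and 5 of 8 in GMP, against 2 of 8 in each other group. Mast cell, basophil and eosinophil markers were over 60 for 6 of 8 in GMP and 4 of 8 in LSK, against 2 or 3 in the others. Summed mature neutrophil markers were 6960 to 12150 on LSK arrays and 6464 to 15530 on GMP arrays. The part of such cells in the differences was not tested. T and NK cell markers were under 60 (0 of 6) in each group except the GFP vector, where 1 was over. L-GMP 1 correlated with L-GMP 2 and 3 at 0.910 and 0.888 over all expressed probe sets, whereas L-GMP 2 and 3 correlated at 0.972. L-GMP 1 also had the largest 3′ minus 5′ signals of the Gapdh and actin controls, a sign of RNA degradation or short products, at 4.82 and 3.45. AML1-ETO 1 correlated with the other AML1-ETO arrays at 0.952 to 0.958, against 0.978 to 0.984 among those, and GMP 2 with the other GMP arrays at 0.934 to 0.969, against 0.978 to 0.989. Values without these arrays are given for several of the results. The arrays carry file-name tags whose meaning is not stated (tag A on 15 of 24 arrays, tag B on 5, none on 4), and values within tag A are given for each called difference where they could be fitted. Where arrays of compared groups are said not to overlap, the share of all probe sets without overlap was not computed. Groups this small can also separate by chance.

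Spi1 was lowest in LSK cells and highest in L-GMP. The LSK arrays read 8.46, 8.41 and 8.44. The GMP arrays read 9.16, 8.81, 8.94 and 9.11, all above LSK. The L-GMP arrays read 10.00, 10.04 and 9.69, above every other array of the series. Among cultured cells, the GFP vector arrays read 9.22, 8.84 and 8.79, close to the range of fresh GMP. MOZ-TIF2 arrays read 9.15, 9.02, 9.19 and 9.59, and NUP98-HOXA9 arrays read 8.90, 9.09 and 9.60. AML1-ETO arrays read 7.97, 8.87, 8.70 and 8.76, of which the first was the lowest Spi1 value of all 24 arrays. The group means rose in the order LSK (8.43 ± 0.03, SD, n = 3), AML1-ETO (8.58 ± 0.41, n = 4), GFP vector (8.95 ± 0.23, n = 3), GMP (9.00 ± 0.16, n = 4), NUP98-HOXA9 (9.20 ± 0.36, n = 3), MOZ-TIF2 (9.24 ± 0.24, n = 4) and L-GMP (9.91 ± 0.20, n = 3). In limma's fit of all 24 arrays, 1 of the 6 neighbouring steps passed an adjusted p of 0.05, that from MOZ-TIF2 to L-GMP (difference 0.67 ± 0.20, SE, adjusted p = 0.0219). Of the 21 pairs of groups, 9 differed. Such counts of steps and pairs were made for the members only and not over all probe sets.

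Irf8 was high in fresh GMP and low in both LSK cells and vector-transduced GMP. Its 2 probe sets ran together (r = 0.98 over 24 arrays), and values are of 1416714_at unless stated. The LSK arrays read 8.79, 9.13 and 9.36. The GMP arrays read 11.23, 10.28, 10.52 and 10.81. The GFP vector arrays read 8.92, 8.57 and 9.40, so that fresh GMP stood above all LSK and all vector arrays. MOZ-TIF2 arrays read 10.76, 10.24, 9.73 and 9.51. NUP98-HOXA9 arrays read 9.84, 9.46 and 10.10. AML1-ETO arrays read 9.10, 9.22, 8.61 and 8.75, inside the range of the vector arrays, while the MOZ-TIF2 and NUP98-HOXA9 arrays were all above it. L-GMP split, with 9.54 on L-GMP 1 and 11.31 and 11.16 on L-GMP 2 and 3. The mean of L-GMP was 10.67 ± 0.98 (SD, n = 3) with all arrays and 11.24 without L-GMP 1. The means of the other groups were 8.92 ± 0.29 for AML1-ETO (n = 4), 8.96 ± 0.41 for the GFP vector (n = 3), 9.09 ± 0.29 for LSK (n = 3), 9.80 ± 0.32 for NUP98-HOXA9 (n = 3), 10.06 ± 0.56 for MOZ-TIF2 (n = 4) and 10.71 ± 0.41 for GMP (n = 4). None of the 6 neighbouring steps passed in limma's fit of all arrays for either probe set, and 8 of the 21 pairs differed for each. Probe set 1448452_at placed LSK lowest (7.27 ± 0.40, n = 3) and L-GMP highest (8.93 ± 1.04, n = 3), with GMP next (8.81 ± 0.39, n = 4).

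Gfi1 had the widest span of group means of the members, 2.12, larger than in 91.7% of expressed probe sets. The LSK arrays read 7.58, 7.84 and 7.51. The GMP arrays read 8.73, 8.53, 8.58 and 8.65, a narrow band above LSK. The GFP vector arrays read 9.53, 9.25 and 9.39, all above fresh GMP, the reverse of Irf8. MOZ-TIF2 arrays read 9.57, 9.25, 9.78 and 10.26. NUP98-HOXA9 arrays read 8.84, 8.78 and 9.18, below all vector arrays. AML1-ETO arrays read 8.16, 8.98, 8.13 and 8.69, also below all vector arrays and scattered on either side of fresh GMP. L-GMP arrays read 10.42, 9.49 and 9.38, so that L-GMP 1, the array low in Irf8, had the highest Gfi1 of the series. The group means rose in the order LSK (7.64 ± 0.17, SD, n = 3), AML1-ETO (8.49 ± 0.41, n = 4), GMP (8.62 ± 0.09, n = 4), NUP98-HOXA9 (8.93 ± 0.22, n = 3), GFP vector (9.39 ± 0.14, n = 3), MOZ-TIF2 (9.72 ± 0.43, n = 4) and L-GMP (9.76 ± 0.57, n = 3; 9.44 without L-GMP 1). In limma's fit of all arrays 1 of the 6 neighbouring steps passed, that from LSK to AML1-ETO (0.84 ± 0.25, SE, adjusted p = 0.00916). With 13 of 21 pairs of groups different, Gfi1 separated the groups more often than the other members did, a ranking among the members alone.

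Zeb2 varied most within groups. The LSK arrays read 6.79, 6.81 and 7.29. The GMP arrays read 8.20, 6.71, 8.59 and 7.65, and GMP 2 was the lowest Zeb2 value of all 24 arrays. The GFP vector arrays read 7.16, 6.74 and 7.23, close to LSK. MOZ-TIF2 arrays read 8.13, 7.93, 7.68 and 8.24, all above the vector arrays. NUP98-HOXA9 arrays read 6.97, 7.10 and 8.57 and AML1-ETO arrays read 7.29, 8.71, 7.39 and 7.57, each group with 1 array far above the others. L-GMP arrays read 7.86, 9.28 and 8.87. The means were 6.96 ± 0.28 for LSK (SD, n = 3), 7.04 ± 0.27 for the GFP vector (n = 3), 7.55 ± 0.89 for NUP98-HOXA9 (n = 3), 7.74 ± 0.66 for AML1-ETO (n = 4), 7.79 ± 0.81 for GMP (n = 4), 8.00 ± 0.24 for MOZ-TIF2 (n = 4) and 8.67 ± 0.73 for L-GMP (n = 3; 9.07 without L-GMP 1). No neighbouring step passed in limma's fit of all arrays, and 2 of the 21 pairs did.

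**Figure D1:**
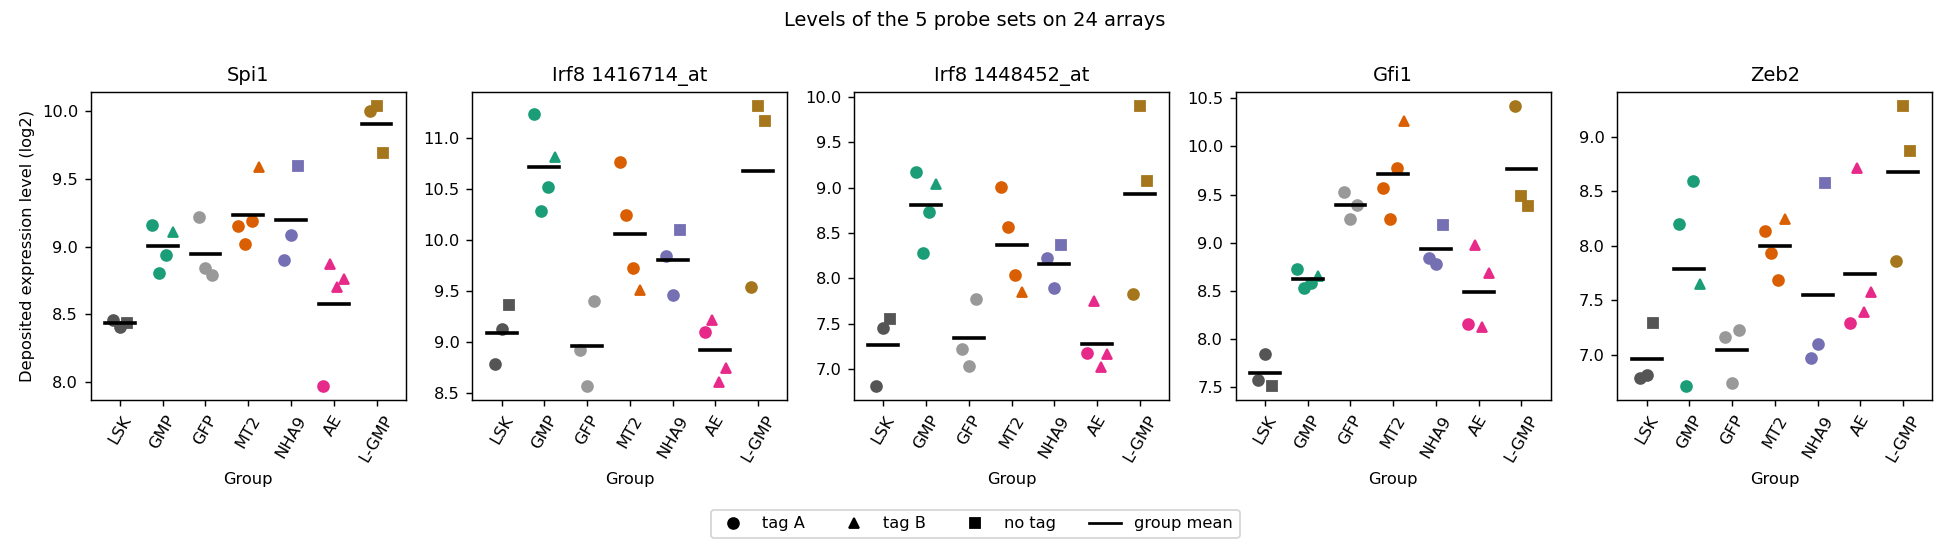
Deposited log2 level (vertical axis) of the 5 probe sets on each of the 24 arrays by group (horizontal axis); points are arrays, shaped by file-name tag, and bars are group means. Fresh GMP stands above LSK and the GFP vector for Irf8, the GFP vector stands above fresh GMP for Gfi1, and L-GMP arrays are the highest for Spi1.

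The step from the stem cell gate to GMP was addressed by comparing LSK with GMP. Irf8, Gfi1 and Spi1 were all lower in LSK, and LSK and GMP arrays did not overlap for these genes. Irf8 differed by -1.62 ± 0.24 (SE) on 1416714_at, 3.07-fold lower in LSK (limma, adjusted p = 0.0029, n = 3 against 4), and by -1.54 ± 0.26 on 1448452_at (adjusted p = 0.00469). Gfi1 differed by -0.98 ± 0.15, 1.97-fold lower (adjusted p = 0.00296), and Spi1 by -0.57 ± 0.15, 1.48-fold lower (adjusted p = 0.0318). So 4 of the 5 probe sets passed, against 15.1% of all probe sets tested (10.1% higher and 5.01% lower in LSK). Zeb2 differed by -0.82 ± 0.39 (95% interval -1.71 to 0.06, adjusted p = 0.201) with LSK and GMP arrays overlapping through GMP 2; without GMP 2 the difference was -1.18 (adjusted p = 0.00749). Irf8 and Gfi1 kept their calls whichever array was left out, and within tag A the differences were -1.72 for Irf8 1416714_at and -0.91 for Gfi1 (adjusted p = 0.021 and 0.0269). The Spi1 call was lost within tag A (-0.53, adjusted p = 0.116), with the replicate block and with the file-name prefix as a factor. It was also lost with all 24 arrays in the fit (adjusted p = 0.0544). Leaving out LSK 1, 2 or 3 or GMP 1 or 3 lost it too (adjusted p up to 0.116). Over all fits with 1 array left out, the Spi1 differences ran from -0.63 to -0.52.

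The relatives of the members ran the other way between these populations. Of 15 tested relatives of the ETS, IRF, Gfi and Zeb families, 8 were higher in LSK and 0 lower, with a median difference of 0.72 against 0.06 over all genes. Zeb1, which shares the E-box with Zeb2, was 1.24 ± 0.18 higher in LSK (8.57 ± 0.11 against 7.33 ± 0.28, SD, limma adjusted p = 0.00272). Irf2, a repressor of interferon targets, was at least 2.01-fold higher (adjusted p = 0.00448), Irf9, the DNA-binding part of the interferon-stimulated complex, was 1.36 higher (adjusted p = 0.0115) and Irf1 was 0.72 higher (adjusted p = 0.0146). The other 4 were Elf1, 0.91 higher, and Irf7, Ets1 and Gfi1b. Gfi1b, the paralog of Gfi1 known from erythroid and stem cells, was at least 1.41-fold higher (adjusted p = 0.0403) while Gfi1 was lower; Irf2, Irf7, Ets1 and Gfi1b had GMP means under 60, so their folds are lower bounds, 1.84 for Irf7 and 1.66 for Ets1. Leaving out 1 array left between 3 (without LSK 1) and 8 relatives called. Among genes known to be bound or activated by PU.1, 8 of 14 were lower in LSK and 1 higher (median -0.83), led by Fcgr3 (-2.67), the receptor subunit gene Tyrobp (-1.37) and Csf1r, the macrophage growth factor receptor (-1.44). Of 15 monocyte genes, 7 were lower and 0 higher. Without LSK 1 or LSK 2 the lower PU.1 genes numbered 3 and the lower monocyte genes 4, and without GMP 1 the lower PU.1 genes numbered 4. Of 17 neutrophil genes, 6 were lower and 0 higher, among them the primary granule genes Ctsg (-2.07) and Prtn3 (-1.35) and Ms4a3 (-2.85). The dendritic cell list went the other way, with 3 of 7 tested genes higher in LSK (Flt3, H2-Aa and Tcf4) and 0 lower. Its median was 0.73 against 0.06 over all genes, of which 11.2% were higher and 5.27% lower. Leaving out 1 array left between 1 (without LSK 3) and 4 dendritic cell genes called higher. Fewer cells of a type and less RNA per cell cannot be told apart in such bulk samples.

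Infection and culture were addressed by comparing GFP vector GMP with fresh GMP. Irf8 fell and Gfi1 rose, while Spi1 was not called. Irf8 differed by -1.75 ± 0.26 (SE) on 1416714_at, 3.35-fold lower (limma, adjusted p = 0.00269, n = 3 against 4), and by -1.47 ± 0.25 on 1448452_at (adjusted p = 0.0052). Gfi1 was 0.77 ± 0.14 higher, 1.7-fold (adjusted p = 0.00669). These 3 of 5 probe sets passed against 15.7% of all probe sets (8.25% higher and 7.43% lower), their arrays did not overlap, and the calls held whichever array was left out and within tag A (-1.71, -1.39 and 0.77, with adjusted p of 0.00766, 0.0129 and 0.0111). Spi1 differed by -0.05 ± 0.17 (95% interval -0.43 to 0.32) and Zeb2 by -0.75 ± 0.39 (-1.63 to 0.13, adjusted p = 0.238). Without GMP 2, Zeb2 was called at -1.10.

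The lists around the members differed in how many genes moved with culture, where 8.77% of all genes rose and 7.83% fell. Of 13 corepressor genes of Gfi1 and Zeb2, 0 were called by limma (median -0.34; 6 lower without GMP 2), and of 12 family relatives 1 rose, Ets1, and 1 fell, Etv6. Of 16 tested genes known to be bound or activated by PU.1, 12 rose and 0 fell (median 0.84 against -0.05 over all genes), although Spi1 itself was not called. They included the Fc receptor subunit gene Fcer1g (1.27 higher), Ncf4 (1.09 higher) and Cybb, a subunit of the NADPH oxidase, at least 1.96-fold higher with its GMP mean under 60. Of 16 monocyte genes, 11 rose and 1 fell (median 1.47), although Irf8, which favours monocytes, was lower. The protease gene Ctss was 3.20 higher, Adgre1, the F4/80 antigen of macrophages, was 1.85 higher, and F13a1 and Psap were each 1.72 higher (adjusted p between 6.5e-05 and 0.000988 over these 4 genes). Neutrophil genes divided: Mmp8 was 5.34 higher and Lcn2 1.28 higher, whereas Camp fell by 2.55 and Ltf fell by 2.26. Of 10 genes known to be repressed by Gfi1, 5 rose and 2 fell (median 0.65), with the cell cycle inhibitor Cdkn1a 2.85 higher and Id1 1.64 higher, so that most called genes of this list rose together with Gfi1. Id2 of the same list was at least 3.83-fold higher, since its GMP mean lay under 60. The 2 that fell were Irf8 and Meis1, the latter with a vector mean under 60 and no fold that can be given. Of the members' upstream and partner factors, 4 of 16 rose and 6 fell, and Cebpb, which drives granulocyte production under stress, was 1.92 higher (adjusted p = 0.000447). Leaving out 1 array left between 6 (without GFP 2) and 13 PU.1 genes, and between 8 and 11 monocyte genes, called higher. The partner factors that fell then numbered from 2 (without GFP 2) to 8 (without GMP 2), and those that rose from 2 (without GMP 1 or GFP 1) to 4. The summed macrophage marker level was 6359 to 7395 on vector arrays and 3061 to 4348 on fresh GMP arrays, with Marco, Mrc1 and C1qa under 60 in both groups. Most of this sum was Csf1r, with means of 12.49 in vector GMP and 11.62 in fresh GMP. The part of macrophages in these differences was not tested.

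The early effect of each oncogene was addressed by comparing it with the GFP vector at 36 hours, and all these comparisons share the 3 vector arrays. In MOZ-TIF2 GMP, Irf8 and Zeb2 were higher. Irf8 was 1.10 ± 0.29 (SE) higher on 1416714_at, 2.14-fold (limma, adjusted p = 0.0371, n = 4 against 3), and 1.03 ± 0.27 higher on 1448452_at (adjusted p = 0.0377). Zeb2 was 0.95 ± 0.17 higher, 1.94-fold (adjusted p = 0.0113). These 3 of 5 probe sets passed against 11.8% of all probe sets (8.91% higher and 2.93% lower), with no overlap of arrays, and within tag A the differences were 1.28, 1.20 and 0.87 (adjusted p = 0.0318, 0.0324 and 0.0241). The Irf8 calls were lost without MOZ-TIF2 1 or 2 or GFP 1 or 2 (adjusted p up to 0.148), and the Zeb2 call without GFP 2 (adjusted p = 0.053). Over all fits with 1 array left out, Irf8 differences ran from 0.86 to 1.31 on 1416714_at and 0.81 to 1.24 on 1448452_at. Gfi1 differed by 0.33 ± 0.21 (95% interval -0.13 to 0.79, adjusted p = 0.318) and Spi1 by 0.28 ± 0.16 (-0.07 to 0.64, adjusted p = 0.262). The Irf8 mean of MOZ-TIF2 GMP lay between those of the vector and of fresh GMP.

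Around the members, some neutrophil genes were lower in MOZ-TIF2 GMP. Of 16 neutrophil genes, 5 were lower and 0 higher (median -0.62 against 0.06 over all genes), including Lcn2 (-1.11), S100a9 (-1.83), Mmp8 (-1.52) and Itgb2l (at least 1.13-fold lower). Differences lay below 0 for 12 of the 16 and above 0 for 4. Those 4 were Ctsg (13.50 against 13.26 in the vector), Prtn3 (13.37 against 13.34), Ms4a3 (12.08 against 12.01) and Csf3r (9.10 against 8.91). Of 16 monocyte genes, 1 fell, F13a1 (-0.73), and 0 rose. Among family relatives the ETS genes Elf1 (1.17 ± 0.15 higher, adjusted p = 0.00584) and Etv6 (0.83 higher, adjusted p = 0.0153) rose and Ets1 (at least 1.98-fold lower, adjusted p = 0.0253) and Irf1 (-0.49, adjusted p = 0.0492) fell. Of genes known to be repressed by Gfi1, 3 of 11 rose, Irf8 itself among them, with Hoxa9, a homeobox factor of self-renewing progenitors, 1.50 higher (adjusted p = 0.00853), and 2 fell. Its partner Meis1 was at least 1.29-fold higher, its vector mean lying under 60. Leaving out 1 array left between 1 (without GFP 2) and 8 neutrophil genes called lower. No relative was called lower without MOZ-TIF2 1 or any 1 of the vector arrays, and no Gfi1-repressed gene was called lower without any 1 of the vector arrays. Without GFP 2 the Gfi1-repressed genes called higher numbered 1 and the relatives called higher 1.

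In NUP98-HOXA9 GMP none of the 5 probe sets passed, against 0.200% of all probe sets (0.191% higher and 0.00911% lower). Irf8 was 0.84 ± 0.24 (SE) higher than in the vector with no overlap of arrays (95% interval 0.29 to 1.38, limma unadjusted p = 0.0075, adjusted p = 0.298, n = 3 against 3). Its other probe set gave 0.82 ± 0.22 (adjusted p = 0.273). Gfi1 differed by -0.46 ± 0.16, again with no overlap (95% interval -0.82 to -0.10, unadjusted p = 0.0187, adjusted p = 0.371). So 3 of the 5 probe sets, 2 of them of Irf8, had an unadjusted p under 0.05, against 10.5% of all probe sets. After adjustment 0 passed. By the test of each probe set alone that the methods name, 0 of all probe sets passed after adjustment. Zeb2 differed by 0.51 ± 0.39 and by -0.01 within tag A, that is, without NUP98-HOXA9 3. Within tag A, Irf8 differed by 0.69 and Gfi1 by -0.58 (adjusted p = 0.151 and 0.0617). Hoxa9 was 1.67 higher (adjusted p = 0.0272), and it was the gene of the Gfi1-repressed list that rose (1 of 9).

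In AML1-ETO GMP, Gfi1 was lower. It differed by -0.90 ± 0.22 (SE), 1.87-fold (limma, adjusted p = 0.0305, n = 4 against 3), with no overlap of arrays. This was 1 of 5 probe sets, against 11.0% of all probe sets (8.75% higher and 2.21% lower). Irf8 differed by -0.04 ± 0.22 (95% interval -0.54 to 0.46) and -0.06 ± 0.23 on its 2 probe sets. Spi1 differed by -0.37 ± 0.23 (-0.88 to 0.13, adjusted p = 0.308). Zeb2 differed by 0.70 ± 0.32 (-0.01 to 1.41, adjusted p = 0.181), with every AML1-ETO array above every vector array. The Gfi1 call was lost without AML1-ETO 3 or any of GFP 1 to 3 (adjusted p up to 0.127). Over all fits with 1 array left out, the Gfi1 differences ran from -1.06 to -0.78. The Spi1 differences ran from -0.47 to -0.17 in those fits, and none was called. Tag A holds 1 AML1-ETO array, AML1-ETO 1, against all 3 vector arrays, the array that stood apart from its group, and that array, assumed to vary like the vector arrays, gave -1.23 for Gfi1 (adjusted p = 0.00968) and -0.98 for Spi1 (adjusted p = 0.0253). Without AML1-ETO 1, 3061 of 11319 probe sets were called, in place of 1249 of 11393.

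Of 17 upstream and partner factors, 2 rose and 2 fell in AML1-ETO GMP, where 9.68% of all genes rose and 2.43% fell. Without AML1-ETO 1, 6 of them rose and 4 fell, in a fit that called 3061 of 11319 probe sets. Cebpa, which drives the passage into GMP, fell by 1.44 ± 0.24 (adjusted p = 0.00669), and Jun, a partner of PU.1, was 1.92 ± 0.27 higher (adjusted p = 0.0032). Kdm1a, the demethylase that Gfi1 recruits, was 0.80 higher (adjusted p = 0.017), 1 of 13 corepressor genes called and lost without GFP 1 or GFP 2. Of 17 neutrophil genes, 4 were lower and 0 higher, the primary granule genes Elane (-1.03) and Mpo (-0.67), Ms4a3 (-1.13) and Gstm1 (-1.17). Of 16 monocyte genes, 5 rose and 1 fell: Cd14, the endotoxin coreceptor, was 2.72 higher, Lyz2 0.76 higher and Csf1r 0.67 higher, and Klf4, a monocyte factor, fell by 0.89. Of 9 dendritic cell genes 3 rose and 0 fell, with Tcf4, the E protein of plasmacytoid dendritic cells, 1.76 higher and the NF-kB subunit Relb at least 3.53-fold higher, since its vector mean lay under 60. Of 11 genes known to be repressed by Gfi1, 3 rose and 0 fell, Csf1r, Id1 (1.19 higher) and Egr2, whose vector mean lay under 60. These counts varied when 1 array was left out, from 1 (without GFP 1 or GFP 2) to 6 (without AML1-ETO 1, where 3 others rose) for the lower neutrophil genes, 1 to 5 for the monocyte genes (1 without GFP 1) and 0 (without GFP 1) to 6 for the Gfi1-repressed genes.

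With the 11 oncogene arrays as a single class against the vector, 0 of 5 probe sets passed in limma, as did 0% of all 11632 tested. Unadjusted p-values were under 0.05 for 10.7% of all probe sets, and the methods' own test of each probe set alone called 116 probe sets, none of them of these genes. Zeb2 differed by 0.74 ± 0.32 (SE, unadjusted p = 0.0345, adjusted p = 0.44, n = 11 against 3) and Irf8 by 0.61 ± 0.36 (adjusted p = 0.523).

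**Figure D2:**
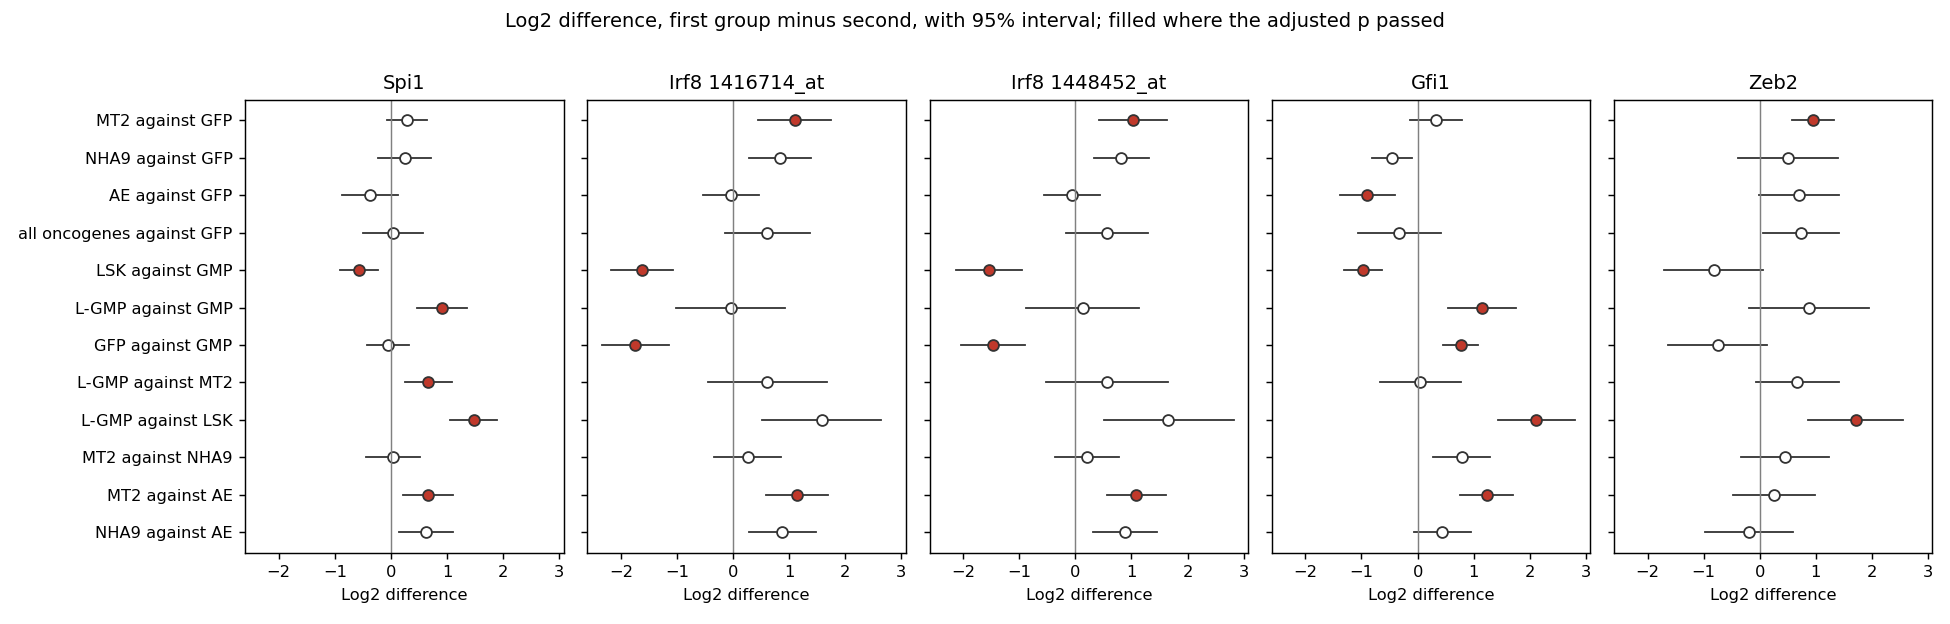
Log2 difference (horizontal axis, first group minus second) of each probe set in each of the 12 comparisons (vertical axis), with 95% intervals from limma; filled points passed an adjusted p of 0.05. Irf8 and Gfi1 lie on opposite sides of 0 in GFP against GMP, and both lie above 0 in MT2 (MOZ-TIF2) against AE (AML1-ETO).

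Comparing oncogenes with each other in a fit of the 14 transduced arrays, MOZ-TIF2 and AML1-ETO GMP differed in Spi1, Irf8 and Gfi1. Gfi1 was 1.23 ± 0.22 (SE) higher with MOZ-TIF2, 2.34-fold (limma, adjusted p = 0.00103, n = 4 against 4). Irf8 was 1.14 ± 0.26 higher on 1416714_at, 2.2-fold (adjusted p = 0.00478), and 1.09 ± 0.25 on 1448452_at (adjusted p = 0.00465), and Spi1 was 0.66 ± 0.21 higher, 1.58-fold (adjusted p = 0.0287). These 4 of 5 probe sets passed against 27.7% of all probe sets (12.0% higher and 15.8% lower with MOZ-TIF2). MOZ-TIF2 and AML1-ETO arrays did not overlap for them, which was not counted over all probe sets. The Irf8 and Gfi1 calls held in all 14 fits with 1 array left out. Within tag A the AML1-ETO group is AML1-ETO 1 alone, so its values there carry no spread of that group: 1.14 and 1.35 for Irf8, 1.37 for Gfi1 and 1.15 for Spi1. The Spi1 call was lost without MOZ-TIF2 1, MOZ-TIF2 4 or AML1-ETO 1 (differences down to 0.46, adjusted p up to 0.0892). Zeb2 differed by 0.25 ± 0.34 (95% interval -0.47 to 0.98). In the same contrast Cebpa was 1.71 higher and Cebpd, a granulocyte C/EBP factor, 1.51 higher with MOZ-TIF2, and the differences of Jun, Id2 and Cd14 were -2.50, -2.22 and -2.31 (adjusted p between 2.67e-05 and 0.00232).

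For Spi1, Irf8 and Gfi1 the mean of NUP98-HOXA9 lay between those of MOZ-TIF2 and AML1-ETO, and for Zeb2 it lay below both. MOZ-TIF2 against NUP98-HOXA9 gave 0 of 5 probe sets against 7.12% of all (3.22% higher and 3.89% lower). Gfi1 was nearest the threshold at 0.79 ± 0.24 (limma, unadjusted p = 0.00485, adjusted p = 0.059), with no overlap of arrays, and was called without MOZ-TIF2 2, NUP98-HOXA9 3, AML1-ETO 1 or AML1-ETO 2 and within tag A (0.73, adjusted p = 0.0151). Zeb2 differed by 0.45 ± 0.37 (adjusted p = 0.518) and was called within tag A, that is, without NUP98-HOXA9 3 and the tag B and untagged arrays (0.88, adjusted p = 0.0112). NUP98-HOXA9 against AML1-ETO also gave 0 of 5 against 6.99% of all (2.54% higher and 4.44% lower). There Irf8 differed by 0.88 ± 0.28 and 0.88 ± 0.27 on its probe sets (adjusted p = 0.0749 and 0.0599) and Spi1 by 0.62 ± 0.23 (adjusted p = 0.119), each with no overlap of arrays. Irf8 was called without MOZ-TIF2 1 on both probe sets (adjusted p = 0.0414 and 0.0363 at the lowest) and on 1448452_at also without MOZ-TIF2 4 or AML1-ETO 2. Spi1 was called within tag A (1.03, adjusted p = 0.0143), which again holds AML1-ETO 1 alone of its group.

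Overt leukemia was addressed by comparing L-GMP with fresh GMP. Gfi1 and Spi1 were higher in L-GMP. Gfi1 was 1.14 ± 0.27 (SE) higher, 2.21-fold (limma, adjusted p = 0.0444, n = 3 against 4), and Spi1 0.91 ± 0.20 higher, 1.88-fold (adjusted p = 0.0339), with no overlap of arrays for either. These were 2 of 5 probe sets, against 4.86% of all probe sets (3.41% higher and 1.45% lower). Irf8 differed by -0.04 ± 0.43 (95% interval -1.01 to 0.93) and 0.13 ± 0.45 on its 2 probe sets, and Zeb2 by 0.88 ± 0.47 (-0.19 to 1.95, adjusted p = 0.39). Without L-GMP 1 the differences were 0.53 and 0.68 for Irf8, 1.29 for Zeb2 and 0.82 for Gfi1. The Gfi1 call was lost without L-GMP 2 or any 1 of the GMP arrays, and the Spi1 call without L-GMP 2 or GMP 1, 3 or 4 (adjusted p up to 0.158); within tag A, where L-GMP 1 is the only leukemic array and is assumed to vary like the GMP arrays, Gfi1 was 1.80 higher (adjusted p = 0.0368) and Spi1 1.04 higher (adjusted p = 0.127).

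L-GMP 1 differed from L-GMP 2 and 3 in its levels of these regulators. L-GMP 1 combined the highest Gfi1 of the series with an Irf8 level just above the highest LSK and vector arrays and the lowest Zeb2 of its group. L-GMP 2 and 3 combined Irf8 above the GMP mean with the highest Zeb2 values of the series. The neutrophil granule genes followed the same division: the summed level of mature neutrophil markers was 21360 on L-GMP 1 and 1078 and 851 on L-GMP 2 and 3, against 6464 to 15530 on GMP arrays. Cxcr2, Mmp8 and Mmp9 of this list were under 60 on average in L-GMP. Summed GMP markers were 48620, 30950 and 27819 on L-GMP 1 to 3, against 48622 to 54149 in GMP. Summed macrophage markers were 8731, 12794 and 10804, against 3061 to 4348. Most of the macrophage sum was Csf1r (mean 13.27 in L-GMP, 11.62 in GMP), which is also on the monocyte, PU.1 and Gfi1-repressed lists. Of the other macrophage markers, Vcam1 was lower in L-GMP (5.53 against 7.49) and the rest higher. Marco, Mrc1 and Vcam1 were under 60 on average in L-GMP. Spi1 was the member that did not follow this division, at 10.00, 10.04 and 9.69. The part of other cells and of RNA quality in the profile of L-GMP 1 was not tested. L-GMP 1 has tag A and a number prefix in its file name, whereas L-GMP 2 and 3 have no tag and a letter prefix. The division therefore cannot be told apart from that of the file names.

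**Figure D3:**
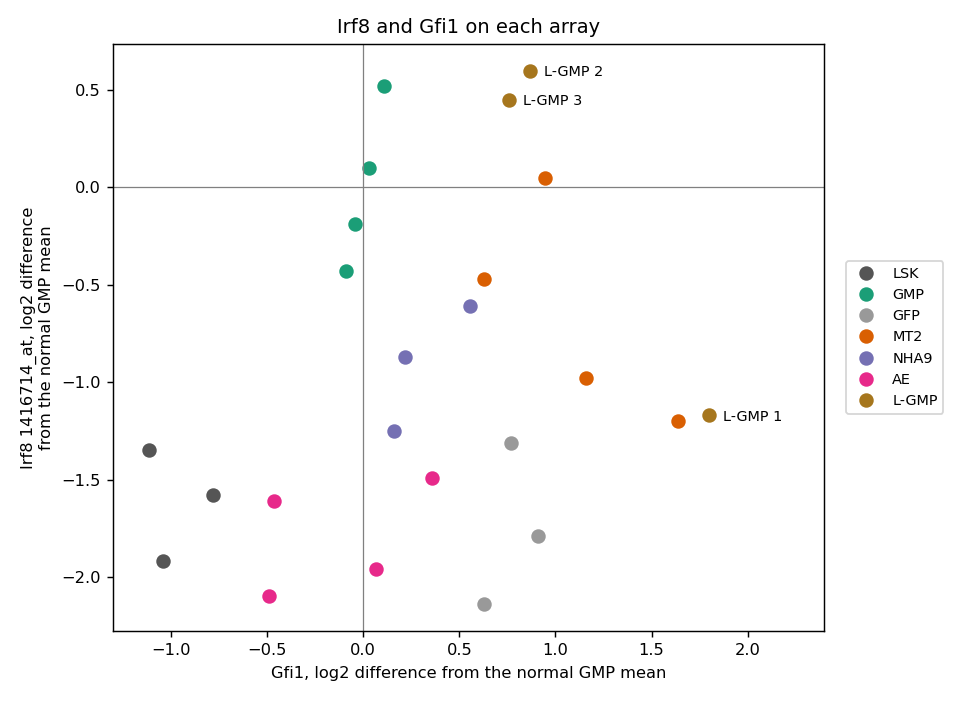
Irf8 (1416714_at, vertical axis) against Gfi1 (horizontal axis) on each of the 24 arrays, both as log2 difference from the mean of the 4 fresh GMP arrays; colours are groups. L-GMP 1 lies at the far right below 0 for Irf8, beside a MOZ-TIF2 array, while L-GMP 2 and 3 lie above 0 for both genes; the GFP vector arrays lie at the lower right.

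Of 9 tested genes known to be repressed by Gfi1, 7 were higher than in GMP and 0 lower (median 1.65 against 0.03 over all genes), in a group in which Gfi1 itself was higher. Hoxa9 was 2.70 ± 0.28 higher (limma, adjusted p = 0.000929), Cdkn1a 1.97 higher (adjusted p = 0.00365) and Csf1r 1.65 higher (adjusted p = 0.005), Meis1 was at least 4.7-fold higher with its GMP mean under 60, and Spi1 is a member of this list. The count was 6 without L-GMP 1 and 3 without L-GMP 2. Of 14 genes known to be bound or activated by PU.1, 4 rose and 0 fell, Csf1r, Ptpn6 (1.38 higher), Tyrobp (1.40 higher) and Junb (1.07 higher). Without L-GMP 1, 5 of this list rose and 1 fell, in a fit that called 1180 of 11295 probe sets. Of 15 monocyte genes, 3 rose and 0 fell, Csf1r, Cd68 (1.88 higher) and Lyz2 (2.21 higher); without L-GMP 2 the count was 1 and without L-GMP 1 it was 5. Of 17 neutrophil genes, 1 fell with all arrays, Gstm1 (-2.57), and 10 without L-GMP 1, with a median of -1.51 for all arrays. Partner factors gave 4 of 15 higher, among them Cebpd (1.60), Egr1 (2.80) and Runx1 (1.25), and 1 without L-GMP 2.

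Zeb1 and Zeb2 had opposite orders of means along LSK, GMP and L-GMP, although the Zeb2 differences from GMP were not called. Zeb1 read 8.57 ± 0.11 in LSK (SD, n = 3), 7.33 ± 0.28 in GMP (n = 4) and 5.97 ± 0.48 in L-GMP (n = 3), and was the family relative called lower in L-GMP against GMP (-1.36 ± 0.27, SE, limma adjusted p = 0.0246), a call lost without GMP 1, 3 or 4 or L-GMP 2 or 3. Against LSK, Zeb1 differed by -2.60 in L-GMP (adjusted p = 0.000835) where Zeb2 was 1.71 ± 0.36 higher (adjusted p = 0.0184). In cultured cells Zeb1 read between 6.55 ± 0.22 (AML1-ETO, n = 4) and 7.07 ± 0.09 (NUP98-HOXA9, n = 3).

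Set against LSK cells, L-GMP had more of 3 members. Gfi1 was 2.12 ± 0.29 (SE) higher, 4.35-fold (limma, adjusted p = 0.00351, n = 3 against 3), Spi1 1.48 ± 0.18 higher, 2.78-fold (adjusted p = 0.00184), and Zeb2 3.26-fold higher. These 3 of 5 probe sets compare with 17.3% of all probe sets (7.14% higher and 10.1% lower). Irf8 was 1.58 ± 0.46 and 1.66 ± 0.49 higher on its probe sets with adjusted p of 0.053 and 0.0574, no overlap of arrays, and calls on both without L-GMP 1 (2.14 and 2.22), in a fit that called 4436 of 11295 probe sets. The Spi1 and Gfi1 calls held with any 1 array left out, and the Zeb2 call was lost without LSK 1, LSK 2 or L-GMP 2. Over all fits with 1 array left out, the Zeb2 differences ran from 1.40 to 2.11. The comparison could not be fitted within tag A.

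Against MOZ-TIF2 GMP at 36 hours, L-GMP had more Spi1, 0.67 ± 0.18 (SE), 1.6-fold (limma, adjusted p = 0.0499, n = 3 against 4), 1 of 5 probe sets where 11.4% of all passed (5.53% higher and 5.86% lower). The call was lost without MOZ-TIF2 1, 2 or 3 or L-GMP 2 or 3 (adjusted p up to 0.147). L-GMP 1, the only leukemic array of tag A, gave 0.88 against the MOZ-TIF2 arrays of that tag (adjusted p = 0.0141, with the lone array assumed to vary like those). Gfi1 differed by 0.05 ± 0.31 (95% interval -0.67 to 0.77), and L-GMP 1 alone differed by 0.88 within tag A (adjusted p = 0.0441). Irf8 differed by 0.61 ± 0.46 and 0.57 ± 0.47 and Zeb2 by 0.67 ± 0.32, and without L-GMP 1 all these were called (1.18, 1.12 and 1.08), in a fit that called 4157 of 11225 probe sets.

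**Figure D4:**
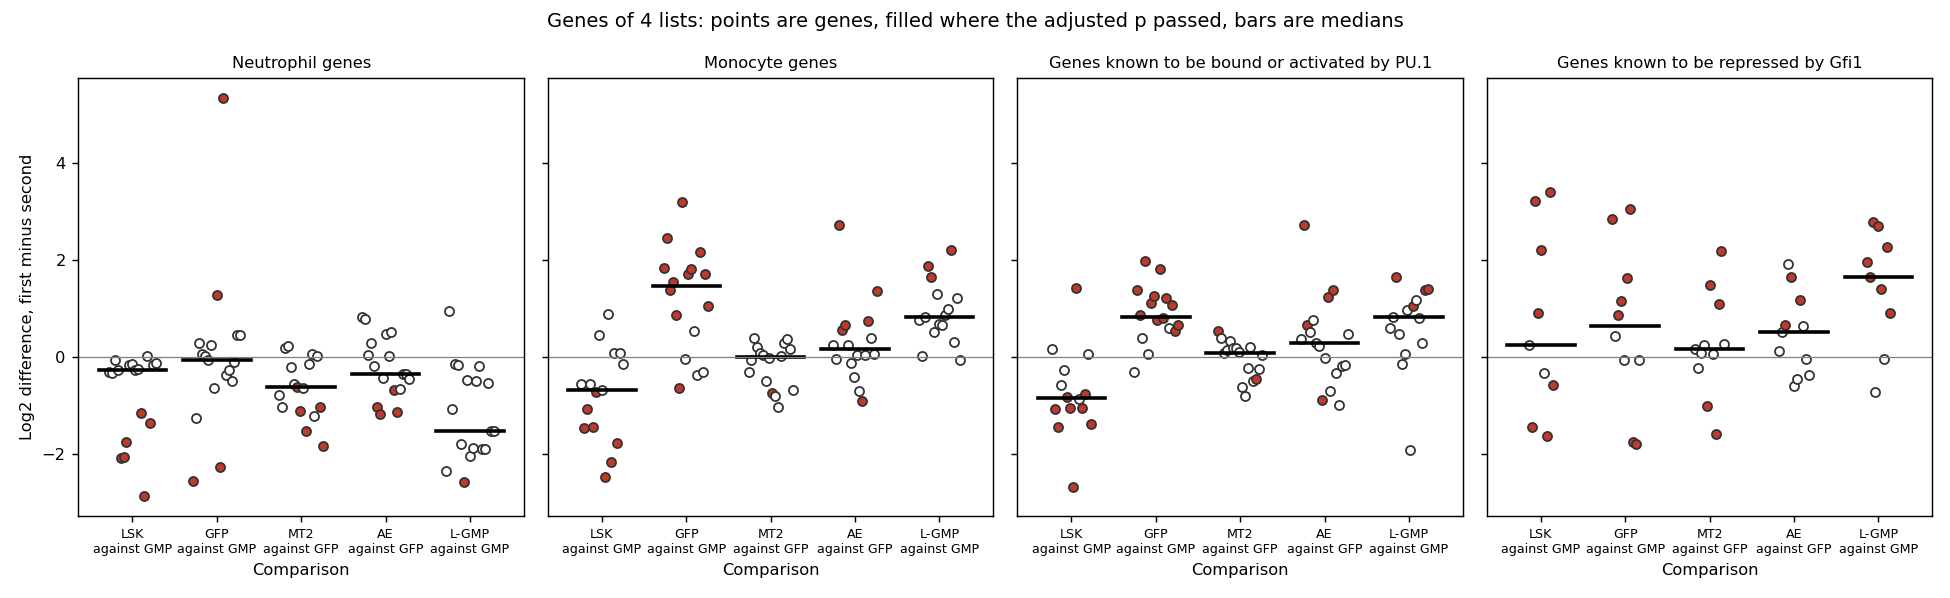
Log2 differences (vertical axis, first group minus second) of the genes of 4 lists in 5 comparisons (horizontal axis); points are genes, filled where limma's adjusted p passed 0.05, and bars are medians. Monocyte genes and genes known to be bound by PU.1 lie mostly above 0 in GFP against GMP, and 7 of 9 genes known to be repressed by Gfi1 are filled above 0 in L-GMP against GMP.

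Within groups, the members did not all vary together. After subtracting group means, Spi1 and Gfi1 correlated at 0.64 over 24 arrays, Irf8 and Zeb2 at 0.58, and Spi1 and Zeb2 at 0.51. Irf8 and Gfi1 correlated at -0.41 (-0.32 with Irf8 1448452_at). L-GMP 1 had the largest deviations of both these genes, -1.13 for Irf8 and 0.65 for Gfi1. The correlations were not computed without that array. The 2 Irf8 probe sets correlated at 0.95. These are descriptions over arrays that share a normalization and, for some, a tag. Zeb2 also moved with the control probe sets: its deviations correlated with the 3′ minus 5′ signal of Gapdh at -0.63 and of actin at -0.71, as strong as in 10.8% and 4.53% of the 12337 expressed probe sets. Irf8 gave -0.41 and -0.60 (41.1% and 14.9% as strong), Spi1 -0.42 and -0.29, and Gfi1 -0.13 and 0.12. The arrays furthest below their group means in Zeb2, GMP 2 and L-GMP 1, had actin signals of 2.95 and 3.45. Those furthest above, NUP98-HOXA9 3 and AML1-ETO 2, had 2.43 and 2.42. MOZ-TIF2 3 and AML1-ETO 3 also had low signals, 2.43 and 2.46, with Zeb2 deviations of -0.31 and -0.35. The part of RNA quality in the Zeb2 levels was not tested.

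**Figure D5:**
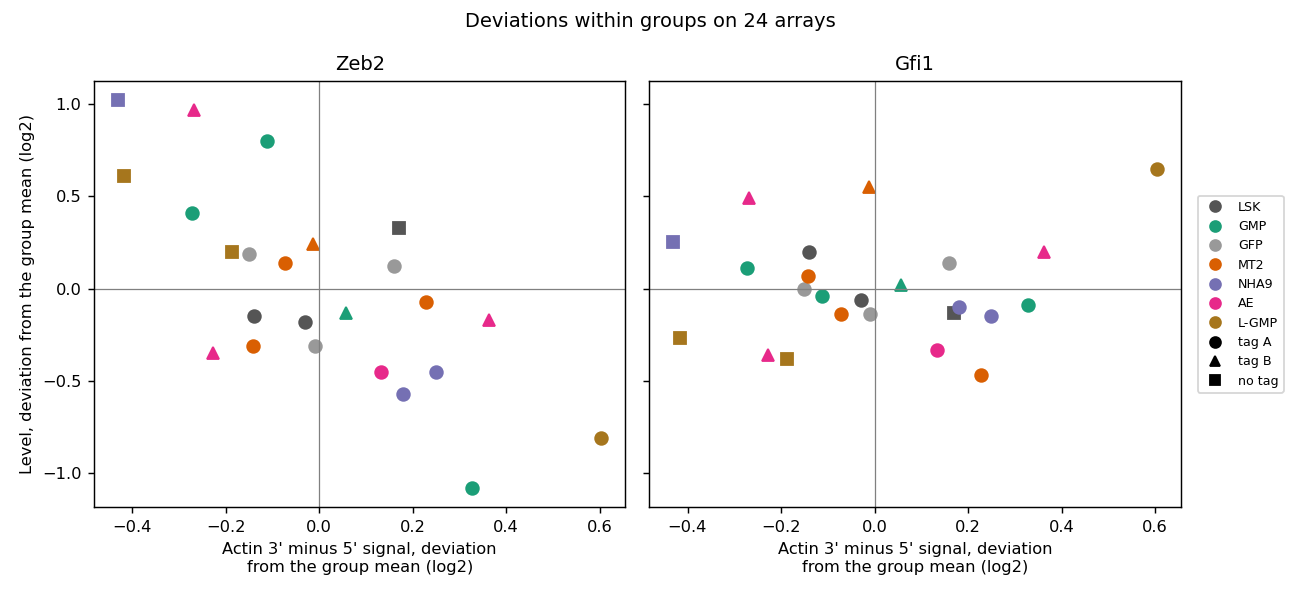
Deviation of Zeb2 (left) and Gfi1 (right) from the group mean (vertical axis, log2) against the deviation of the actin 3′ minus 5′ signal from the group mean (horizontal axis, log2) on 24 arrays, coloured by group. Zeb2 falls as the signal rises (r = -0.71), and Gfi1 shows little relation (r = 0.12).

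The genes whose levels ran most like each member over 24 arrays were sought among 2715 genes with group means spanning at least 1. For Spi1 they were Mettl6 (r = 0.91), Tifa, Hnrnpul2, Gtf2f2 and Bace1 (each 0.84), and the most opposed was Traf3ip2 (-0.84), followed by Pink1 and Stat5b (each -0.82). For Irf8 they were Gria3 (0.83), Recql4 and Ncln (each 0.82), Mettl1 (0.81) and Pinx1 (0.80), with Retreg1 (-0.84), Cd86 and F11r (each -0.82) opposed. Cd86 encodes a costimulatory protein of antigen-presenting cells. For Gfi1 they were Ppp2cb (0.89), then Stt3b, Cebpd, Stom and Dstn (each 0.88), and Cebpd ran closest over the 7 group means (0.98). The most opposed were Tmem176b (-0.90), Tmem176a (-0.87) and Itih5 (-0.84). For Zeb2 they were Glipr1 (0.84), Rrp36 (0.81), Ccdc86 and Arid2 (each 0.79) and Ago2 (0.78), with Ggt5 and Alpk3 (each -0.77) and Rad21 (-0.74) opposed. Likeness within groups was weaker for Cebpd and Gfi1 (0.22) than for Glipr1 and Zeb2 (0.74).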

How the data were processed

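Cells were profiled on Affymetrix Mouse Genome 430A 2.0 arrays, 24 in all, whose number limits the precision. The deposited values are log2 expression levels that the authors made with GCRMA 2.4.1 from MAS5 files, per the series' design text and the submitters' processing notes, which also state that outlier arrays were removed. GCRMA shrinks low signals, so differences of dim genes can be off. Groups and replicate numbers came from the sample titles. Gene symbols came from the platform annotation: of 22626 probe sets, 20380 had 1 symbol, 691 several and 1555 none, and 64 control probe sets of 22690 were used for RNA quality only.

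Each comparison was fitted with limma 3.58.1 in R 4.3.3 on probe sets over 60 (log2 5.91) on at least 2 arrays of a compared group, with Benjamini-Hochberg adjustment over all of them and a threshold of 0.05. Contrasts between oncogenes used the 14 transduced arrays, and orders of levels all 24. Each gene outside the members was read from its probe set with the highest mean. Named genes were the members, their family relatives, up to 4 genes per list and comparison with the smallest adjusted p, and the 5 most alike and 3 most opposed genes; counts of 5 or fewer were also named from values seen. The members and lists were chosen with earlier results of these data known. A fold of a gene whose mean in a group was under 60 is a lower bound against 60.

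The procedure was tested on data with known answers. Shared replicate numbers did not pair the arrays in any comparison: within-number correlations ran from -0.43 to 0.49. Alternatives were no filter or a floor of 100, quantile or median scaling, the methods' Welch test, a replicate block, tag or prefix of the file name, all arrays in the fit, a robust trended fit and leaving out each array.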

Additional observations from a re-analysis of the deposited data

Results flagged for a closer look

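The effects of MOZ-TIF2 and AML1-ETO against the same vector arrays differed for Spi1, Irf8 and Gfi1, by the contrast between these oncogenes in limma's fit of the transduced arrays. The difference was 0.66 for Spi1, 1.14 and 1.09 for the 2 probe sets of Irf8, and 1.23 for Gfi1. Each was higher with MOZ-TIF2 on every array (4 of 4 above 4 of 4). In this contrast 27.7% of all probe sets were called, and the share of them without overlap of arrays was not computed.

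Dixon's test was applied to the 5 probe sets of these genes in the groups of 4, and of 15 sets of values 0 passed the critical gap of 0.829; groups of 3, L-GMP included, were not checked.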

How the results depend on the processing

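Of 1205 values of the members under other settings, 1086 stayed on their side of the threshold, 82 lost a call, 37 gained one and 0 called values changed sign; 51 had a sign other than the reported one. The counts that follow are probe sets called of 5. The methods' Welch test, which uses each probe set alone with no pooled spread, called 0 in every comparison. Over all probe sets it called 0 for each single oncogene against vector and for NUP98-HOXA9 against AML1-ETO, 116 for all oncogenes, 3 in MOZ-TIF2 against NUP98-HOXA9, 15 in L-GMP against GMP, 121 in L-GMP against MOZ-TIF2, 162 in L-GMP against LSK, 268 in LSK against GMP, 606 in vector against GMP and 950 in MOZ-TIF2 against AML1-ETO. Quantile normalization gave 1 in MOZ-TIF2 against vector, 1 in L-GMP against GMP, 5 in L-GMP against LSK, 1 in MOZ-TIF2 against NUP98-HOXA9 and 2 in NUP98-HOXA9 against AML1-ETO. No filter gave 0 in L-GMP against GMP and 0 in L-GMP against MOZ-TIF2, with more probe sets tested. The replicate block, whose numbers did not pair the arrays, gave 0 in AML1-ETO against vector, 0 in L-GMP against GMP, 0 in L-GMP against MOZ-TIF2 and 5 in L-GMP against LSK. The tag as a factor with all arrays gave 1 in MOZ-TIF2 against vector, 2 in AML1-ETO against vector, 5 in L-GMP against LSK and 1 in NUP98-HOXA9 against AML1-ETO. Tag A alone gave 2 in AML1-ETO against vector, 1 in L-GMP against GMP, 2 in L-GMP against MOZ-TIF2, 2 in MOZ-TIF2 against NUP98-HOXA9 and 1 in NUP98-HOXA9 against AML1-ETO; L-GMP against LSK was not run there. The prefix as a factor gave 0 in AML1-ETO against vector, 1 in L-GMP against GMP, 0 in L-GMP against MOZ-TIF2 and 1 in MOZ-TIF2 against NUP98-HOXA9. All 24 arrays in the fit gave 0 in MOZ-TIF2 against vector and 5 in L-GMP against LSK. The causes of these changes were not tested.

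Leaving out 1 array at a time gave 0 to 3 in MOZ-TIF2 against vector, 0 in NUP98-HOXA9 against vector, 0 to 1 in AML1-ETO against vector, 0 with all oncogenes as a class, 3 to 5 in LSK against GMP, 0 to 2 in L-GMP against GMP, 3 to 4 in vector against GMP, 0 to 4 in L-GMP against MOZ-TIF2, 2 to 5 in L-GMP against LSK, 0 to 1 in MOZ-TIF2 against NUP98-HOXA9, 3 to 4 in MOZ-TIF2 against AML1-ETO and 0 to 2 in NUP98-HOXA9 against AML1-ETO. Across all probe sets, quantile normalization moved the share of called probe sets that were higher from 75.2% to 57.9% in MOZ-TIF2 against vector, from 79.8% to 59.7% in AML1-ETO against vector and from 66.9% to 50.2% in LSK against GMP. Means without L-GMP 1 and list counts without single arrays were chosen after seeing the data.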
